A study of Homo sapiens with 80 samples.

Results

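Total RNA from the last sampling step of the total RNA experiment, day 7 for H9 and IMR90-4 and day 6 for WTC11, was compared between a differentiation that ended with a high share of cardiomyocytes and a differentiation that ended with a low share, in each of 3 human pluripotent stem cell lines. These 6 libraries were chosen by line, purity class and day from the 80 samples of the series, with no measured value used, and were set against each other within each line. H9 is an embryonic stem cell line, and IMR90-4 and WTC11 are induced pluripotent stem cell lines; none carried a named genetic change. Purity was classed, per the labels, after flow cytometry for cardiac troponin T at the end of differentiation on day 16, and the percentages are not analysed here. The H9 libraries came from passage 58 (high) and passage 55 (low), the IMR90-4 libraries from passage 55 (high) and passage 75 (low), and the WTC11 libraries from passage 81 (high) and passage 69 (low).

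All 6 differentiations used the GiWi protocol, in which CHIR99021, a GSK3 inhibitor that activates WNT signalling, is added on day 0 and IWP2, an inhibitor of WNT secretion, follows on day 2 in WTC11 and on day 3 in H9 and IMR90-4. WTC11 therefore ran on a shorter schedule than the other lines, and each day is compared only within its line. Each line gave 1 high and 1 low purity library, so differentiation, passage and purity cannot be told apart within a line, and the spread between wells of a differentiation was not measured here. The line is the replicate (n = 3 pairs). As a second data set, 4 high and 4 low purity WTC11 wells of day 6 from the poly(A) arm of the series (the multi-omic experiment) were used. Those wells came from 1 differentiation per class, started at passage 52 and passage 69, and the low purity passage number is the same as that of the low purity WTC11 library of the total RNA experiment.

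During cardiac differentiation, mesoderm marked by MESP1 and EOMES gives rise to progenitors that switch on the transcription factors NKX2-5, ISL1, GATA4, TBX5, HAND2 and MEF2C. These factors activate the sarcomere genes, which encode the contractile filaments (myosins, actins, troponins and titin), and the genes of calcium handling, which move calcium in and out of the sarcoplasmic reticulum at each beat. Cardiac troponin T, the marker used to score purity, is the product of TNNT2, and MYH6 encodes alpha myosin heavy chain, which is abundant in early human cardiomyocytes made in culture.

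The 250 bases before the transcription start are shown for 3 genes that represent the patterns described below: TNNT2, higher in the high purity library of all 3 lines; MYH6, with 3 reads in the low purity H9 library; and NPPA, whose difference had opposite signs between lines. The sequences are from RefSeq (GRCh38.p14), each on the minus strand and written 5′ to 3′ along the gene, at chr1:201377681-201377930 (TNNT2), chr14:23408274-23408523 (MYH6) and chr1:11847784-11848033 (NPPA). Capitals mark matches to TATAAA on the gene's strand, to AGATAA on either strand (the motif of GATA factors), to the CArG box of serum response factor and to the MEF2 motif.
TNNT2: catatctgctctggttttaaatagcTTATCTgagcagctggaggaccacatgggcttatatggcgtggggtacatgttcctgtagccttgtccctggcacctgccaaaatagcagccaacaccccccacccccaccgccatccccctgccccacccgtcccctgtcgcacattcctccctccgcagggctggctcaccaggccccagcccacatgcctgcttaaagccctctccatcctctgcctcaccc
MYH6: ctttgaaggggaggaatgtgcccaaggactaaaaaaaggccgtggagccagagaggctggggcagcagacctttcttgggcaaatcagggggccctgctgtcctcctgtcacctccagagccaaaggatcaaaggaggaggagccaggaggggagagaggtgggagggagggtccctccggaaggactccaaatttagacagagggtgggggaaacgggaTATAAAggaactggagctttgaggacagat
NPPA: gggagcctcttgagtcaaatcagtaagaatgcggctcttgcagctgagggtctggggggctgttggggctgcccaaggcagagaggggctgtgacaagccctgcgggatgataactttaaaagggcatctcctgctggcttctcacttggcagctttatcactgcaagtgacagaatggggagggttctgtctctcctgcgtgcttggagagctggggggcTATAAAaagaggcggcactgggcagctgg
MYH6 and NPPA held TATAAA and TNNT2 held the GATA motif on the opposite strand; no other match was found in these windows. Among 35116 RefSeq promoters cut to the same length, TATAAA was in 6.8%, AGATAA in 9.17%, the CArG box in 1.16% and the MEF2 motif in 2.8%. Among the 72 promoters of 45 cardiac genes with an entry, the shares were 6.94%, 13.9%, 8.33% and 11.1%. These matches are descriptions of sequence and were not tied to binding data.

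The 6 libraries held 17990882 to 32750497 reads in genes. TPM is a length-normalised measure of transcript abundance, and on log2(TPM + 1) the low purity H9 library had correlations of 0.938 to 0.949 with the others and stood apart; the highest correlation of each other library was 0.981 to 0.987. RN7SK, a small nuclear RNA kept by total RNA libraries, took 23.5% to 32.2% of the TPM. The mitochondrial rRNAs RNR1 and RNR2 were at 3295 and 3631 TPM in the low purity IMR90-4 library and at 82.12 TPM or less in the other 5, and the part of this in any result was not tested.

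The question of this comparison is which transcripts differ between high and low purity differentiations at this step. Averaged over the 3 lines, no single gene passed the test. With edgeR's quasi-likelihood test on 23848 genes, fitted with all 24 total RNA libraries and paired by line, 0 genes (0%) had a Benjamini-Hochberg adjusted p under 0.05 with a log2 difference of at least 1, and 2876 genes (12.1%) had an unadjusted p under 0.05. The smallest adjusted p was 0.161. With edgeR on the 6 libraries of this step alone it was 0.757, and 1483 genes had an unadjusted p under 0.05. DESeq2 with the same design called 205 genes, 1.18% of the 17375 to which it gave an adjusted p; 121 were higher and 84 lower in high purity, and 40 of the 205 differed by at least 1 in the same direction in each line. The change in the difference from the step before (day 5, or day 4 in WTC11) also gave 0 calls in edgeR. DESeq2 gave 1 call, and in edgeR 578 genes had an unadjusted p under 0.05. These fits held no term for the differentiation, so the steps of a differentiation were treated as independent.

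TNNT2, which lies on chromosome 1 from 201359014 to 201377680 (GRCh38), was at 211 TPM in the high and 46.3 TPM in the low purity H9 library. It was at 397 and 255 TPM in IMR90-4 and at 333 and 122 TPM in WTC11. The high purity library was above the low purity library of its own line in 3 of 3 lines, but the low purity IMR90-4 library lay above the high purity H9 library, so the classes overlapped across lines. The differences in log2 CPM were 2.06 in H9, 0.67 in IMR90-4 and 1.5 in WTC11, with a mean of 1.41 ± 0.70 (SD, n = 3). The two-sided exact sign-flip permutation p was 0.25, the smallest that 3 pairs allow.

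**Figure D1:**
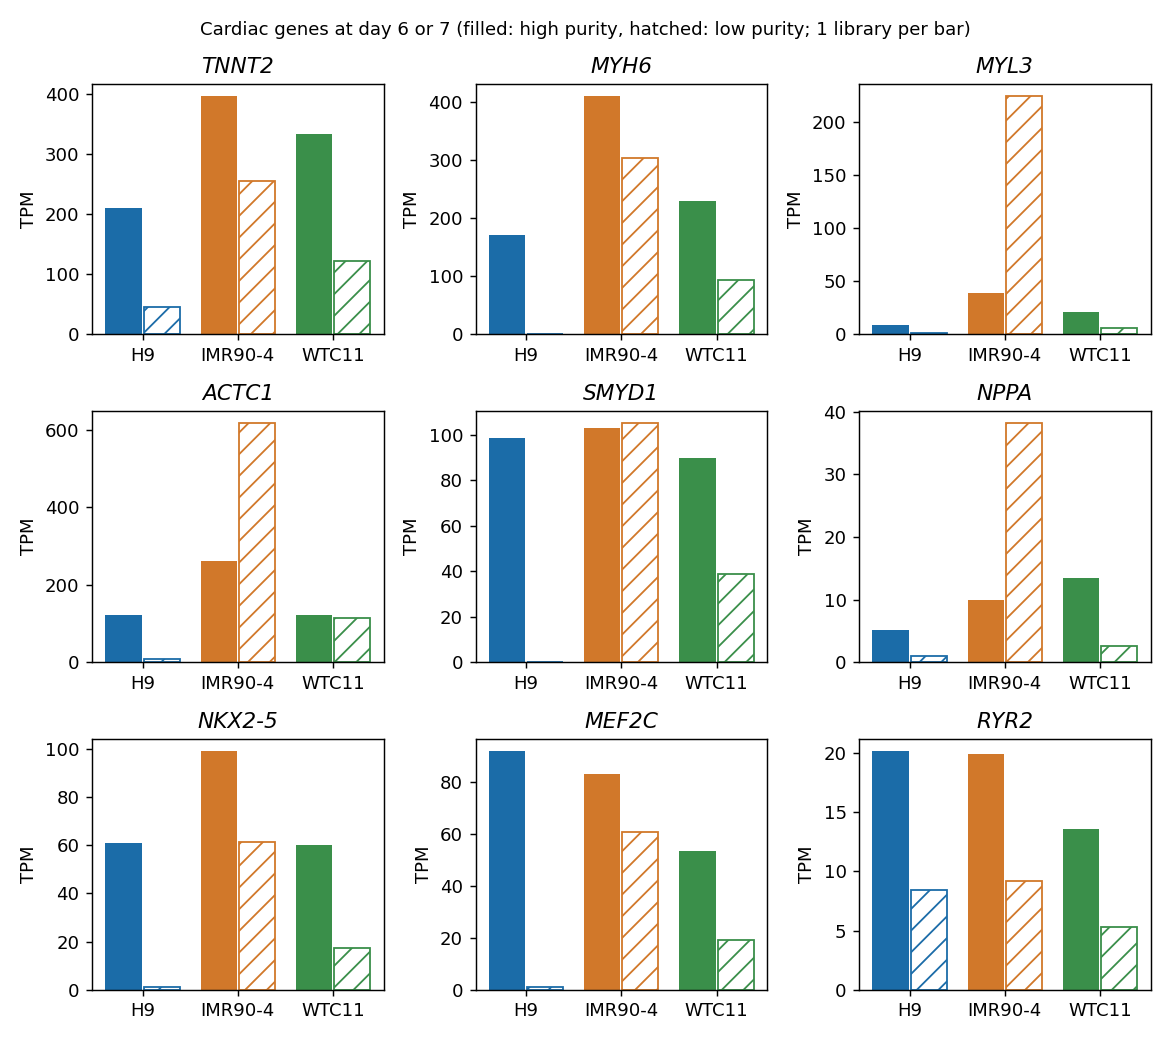
TPM (vertical axis, from 0) of 9 cardiac genes in the 6 libraries, with filled bars for high and hatched bars for low purity; each bar is 1 library. MYH6, SMYD1 and MEF2C are near 0 only in low purity H9, and MYL3, ACTC1 and NPPA are highest in low purity IMR90-4.

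The cardiac genes showed a different picture in each low purity differentiation. In low purity H9 most contractile genes were at lower levels, several of them near 0, and in WTC11 most cardiac genes were lower but detected. In IMR90-4 most cardiac genes were within 1 log2 unit of the high purity library, and several were above it. Across 55 genes of the sarcomere, calcium handling, natriuretic peptide and cardiac transcription factor lists that reached 5 TPM in at least 1 of the 6 libraries, 36 (65.5%) were higher by at least 1 log2 unit in high purity in H9, 6 (10.9%) in IMR90-4 and 32 (58.2%) in WTC11. Among all 11132 genes at that level the shares were 10.8%, 2.64% and 2.91%. The medians of the 55 genes were 2.27, 0.243 and 1.08. In the other direction, 5 of the 55 were lower by at least 1 in high purity in H9 (7.48% of all genes at that level), 5 in IMR90-4 (2.47%) and 2 in WTC11 (2.36%). Fewer cardiac cells and less cardiac RNA per cell cannot be told apart in these bulk samples.

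The commonest pattern among these 55 genes was a shortfall in the low purity libraries of H9 and WTC11 but not of IMR90-4, which held for 25 genes (45.5%, against 1.43% of all genes at that level). They were BMP10, CSRP3, FGF10, HAND2, HEY2, HRC, ISL1, JPH2, LDB3, MEF2C, MYBPC3, MYH6, MYL3, MYL4, MYOCD, MYOM1, NKX2-5, NPPA, PLN, SLC8A1, SMYD1, TNNI1, TNNT2, TRDN and UNC45B. A shortfall in H9 alone held for 8 genes (14.5%, against 8.51%), among them ACTC1, ACTN2, MYL7, MYOZ2, NEBL, TBX20 and TNNC1. WTC11 alone accounted for 3 genes (GATA6, HEY1, SLN), IMR90-4 alone for 2 (TBX2, ZFPM2), and IMR90-4 with WTC11 for TBX5. In all 3 lines the low purity library fell short for CACNA1D, RYR2 and TCAP, 5.45% of the 55 against 0.207% of all genes. The remaining 13 genes, among them GATA4, HAND1, TPM1 and ATP2A2, were higher by at least 1 in high purity in no line. Some of them were lower in high purity. By TPM, HAND1, NR2F1 and NR2F2 were 3.53-fold, 57.2-fold and 27.1-fold lower in H9, NPPB 5.02-fold in IMR90-4 and GJA1 2.93-fold in WTC11. These patterns are counts with no test, since each line gave 1 pair, and they depend on the limit of 1. MYL7 differed by 0.96 in WTC11, PLN by 1.01 in H9, and GATA6 by 0.68 in H9 and 0.80 in IMR90-4. HRC and HAND2 differed by 0.96 and 0.95 in IMR90-4. SLN had 13 and 6 reads in WTC11, and its highest level was 5.28 TPM in low purity H9.

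Among sarcomere genes the size of the H9 shortfall varied widely. MYH6 had 16881 reads in high and 3 reads in low purity H9, a ratio of 5316 per library read with a 95% interval of 1819 to 25780 that covers counting error only. SMYD1, a methyltransferase needed for sarcomere assembly, had 7257 reads and 1 read, and UNC45B, a chaperone of myosin folding, had 5207 and 2. In IMR90-4 these genes were within 1 log2 unit between the classes: MYH6 was at 411 TPM in the high and 303 TPM in the low purity library, SMYD1 at 103 and 105 TPM, and UNC45B at 63.2 and 58.8 TPM. In WTC11 they were at 230 and 94.2, at 89.7 and 38.8, and at 37.8 and 19 TPM.

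Some other contractile genes, such as MYL7 and TPM1, were clearly detected in low purity H9, while MYL4 and TTN were at 6 and 2.71 TPM there. MYL7, the atrial regulatory light chain, was at 1075 TPM in the high and 255 TPM in the low purity library of H9, and TPM1, which encodes a tropomyosin, was at 633 and 339 TPM. MYL4, the atrial essential light chain, was at 560 and 6 TPM in H9, 1227 and 1579 TPM in IMR90-4, and 746 and 357 TPM in WTC11. TTN, the gene of the giant spring protein titin, had TPM values but no usable counts, and was at 90.8 and 2.71 TPM in H9, 98.8 and 79.3 TPM in IMR90-4, and 64.5 and 29.8 TPM in WTC11. TTN therefore followed the same order of lines as MYH6.

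Several cardiac genes were higher in the low purity IMR90-4 library. MYL3, the ventricular essential light chain, was at 38.6 TPM in the high and 225 TPM in the low purity library of IMR90-4, against 9.18 and 1.63 TPM in H9 and 21.1 and 6.21 TPM in WTC11. ACTC1, cardiac alpha actin, was at 260 and 616 TPM in IMR90-4, 122 and 7.11 TPM in H9, and 122 and 112 TPM in WTC11. The low purity IMR90-4 library thus had the highest level of both genes among all 6. The natriuretic peptide genes NPPA and NPPB, which encode hormones released by heart muscle, went the same way. NPPA was at 9.97 and 38.2 TPM and NPPB at 47.5 and 238 TPM in IMR90-4. NPPC, the other member of that list, was level there, with a high over low TPM ratio of 0.96. In the other lines NPPA was higher in high purity, with 5.12 and 0.99 TPM in H9 and 13.4 and 2.6 TPM in WTC11. The IMR90-4 differences were -2.51 for MYL3, -1.21 for ACTC1, -1.90 for NPPA and -2.29 for NPPB.

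Among calcium handling genes, RYR2 differed by a similar amount in each line. RYR2, the calcium release channel of the sarcoplasmic reticulum, was at 20.2 and 8.42 TPM in H9, 19.9 and 9.17 TPM in IMR90-4, and 13.6 and 5.29 TPM in WTC11. All 3 high purity libraries were above all 3 low purity libraries, with differences of 1.14, 1.15 and 1.42 (edgeR adjusted p 0.596). CACNA1D, an L-type calcium channel, differed by 4.28, 2.18 and 1.08. ATP2A2, the pump that refills the store, differed by 0.49, 0.28 and 0.39. SLC8A1, the sodium-calcium exchanger, was at 29.6 and 1.23 TPM in H9 but at 87.4 and 75.4 TPM in IMR90-4.

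Cardiac transcription factors split into a group near 0 in low purity H9 and a group detected there. NKX2-5 was at 61.2 and 1.09 TPM in H9, 99.3 and 61.3 TPM in IMR90-4, and 60.2 and 17.4 TPM in WTC11. MEF2C (91.9 and 0.862 TPM), MYOCD (33.7 and 0.183 TPM) and ISL1 (20.4 and 0.311 TPM) were also near 0 in low purity H9. In IMR90-4 these genes were at 82.8 and 60.7 TPM, 47.95 and 62.8 TPM, and 14.9 and 11.8 TPM, and in WTC11 at 53.4 and 19 TPM, 54.6 and 18.5 TPM, and 13.7 and 6.52 TPM. GATA4 was detected, at 41.2 TPM in the high and 47.4 TPM in the low purity library of H9, and HAND1 was at 30.9 and 109 TPM. The nuclear receptors NR2F1 and NR2F2, known for their part in atrial identity, were at 0.587 and 33.6 TPM and at 0.649 and 17.6 TPM in H9. In IMR90-4 and WTC11 the highest of the 8 values of these 2 receptors was 4.83 TPM.

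Genes that differed by at least 1 in the same direction in all 3 lines numbered 119 higher in high purity (0.499% of 23848) and 72 lower (0.302%). A difference of any size in 1 direction in all 3 lines held for 3909 genes higher (16.4%) and 3778 lower (15.8%). Many of the 191 genes had low counts, with 59 of the higher and 36 of the lower genes at 50 reads or fewer in each of the 6 libraries. Only 9 higher and 3 lower genes also reached 5 TPM in every library of the class where they were higher, and these 12 are named here. Values of the same 6 libraries chose these 12 genes. Where the classes are said not to overlap for such a gene, this describes the selection and is no further support. H9 had the largest of the 3 differences in 129 of the 191 genes. Without H9, 264 genes were higher and 258 lower in both other lines.

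GATA6-AS1, a long noncoding RNA next to GATA6 on chromosome 18, was at 122 and 15.7 TPM in H9, 88.7 and 37.5 TPM in IMR90-4, and 82.7 and 22.1 TPM in WTC11. All 3 high purity libraries were above all low purity libraries. Whether the counting used strand is not given in the sources used here, and reads from the neighbouring gene cannot be told apart if it did not. GATA6 itself was at 50.7 and 29 TPM, 45.6 and 26.8 TPM, and 36.2 and 15.9 TPM, a smaller difference in each line.

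The protein-coding genes of the higher set have mixed roles. PYGM, muscle glycogen phosphorylase, on chromosome 11 from 64746389 to 64760715, was at 28.9 and 6.96 TPM in H9, 19.3 and 9.3 TPM in IMR90-4, and 13.7 and 4.55 TPM in WTC11. Its edgeR mean difference was 1.55 ± 0.25 (SE), with an adjusted p of 0.161, and DESeq2 gave an adjusted p of 4.14e-05. NID2, a basement membrane protein, was at 113 and 26.6 TPM, 79.4 and 39.9 TPM, and 61 and 30 TPM. WNT2, a secreted WNT ligand, was at 11.7 and 2.73 TPM, 9.97 and 4.28 TPM, and 13.5 and 5.05 TPM. The high purity libraries were above the low purity libraries without overlap for all 3 genes. PPM1J, a protein phosphatase, differed by 1.66, 1.54 and 1.23. SHD, an adaptor protein, differed by 6.09 in H9, where its low purity level was 0.399 TPM, and by 1.16 and 1.00 in the other lines.

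Reads at 2 microRNA loci were also in the higher set, and their mature sequences are shown to identify them, from RefSeq (GRCh38.p14), with the seed (bases 2 to 8) in capitals.
hsa-miR-4780: aCCCUUGAgccugaucccuagc
hsa-miR-6132: aGCAGGGCuggggauugca
The MIR4780 hairpin (chromosome 2, 88082519 to 88082599, minus strand) lies inside SMYD1, and the MIR6132 hairpin (chromosome 7, 117020211 to 117020319, plus strand) inside ST7. Total RNA libraries of this kind do not isolate mature microRNAs, so these values count fragments of the locus. MIR4780 had 16, 21 and 17 reads in the high and 0, 6 and 2 reads in the low purity libraries of H9, IMR90-4 and WTC11. MIR6132 had 41, 87 and 49 reads against 16, 9 and 19.

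Lower in high purity in all 3 lines were LUM, TUBB3 and CAVIN1. LUM encodes lumican, a collagen-binding proteoglycan, and was at 4 TPM in the high and 322 TPM in the low purity library of H9, at 4.32 and 14.8 TPM in IMR90-4, and at 2.51 and 13.2 TPM in WTC11. TUBB3, a beta-tubulin known as a neuronal marker, was at 5.13 and 22.8 TPM, 6.38 and 14 TPM, and 6.78 and 18.2 TPM. CAVIN1, a coat protein of caveolae, was at 3.05 and 18.1 TPM, 5.03 and 10.3 TPM, and 4.19 and 12.4 TPM. For each of these genes all 3 low purity libraries were above all 3 high purity libraries. TUBB3 had an edgeR difference of -1.57 ± 0.24 (SE) and an adjusted p of 0.161 (DESeq2 adjusted p 1.31e-05).

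Genes just outside the limit of 1 were, on the higher side, FILIP1 (smallest difference 0.99), ATP1B2 (0.98), LOC107985958 (0.98), PPP1R1A (0.96), HRC (0.96), a calcium-binding protein of the sarcoplasmic reticulum, RBM24 (0.95), a splicing regulator of heart muscle, and HAND2 (0.95). On the lower side they were LINC01952 (-0.98), APOA1 (-0.91), SNORD36C (-0.91) and S100A10 (-0.91). The members just inside were SHD (1.00), NID2 (1.02) and CAVIN1 (-1.00).

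**Figure D2:**
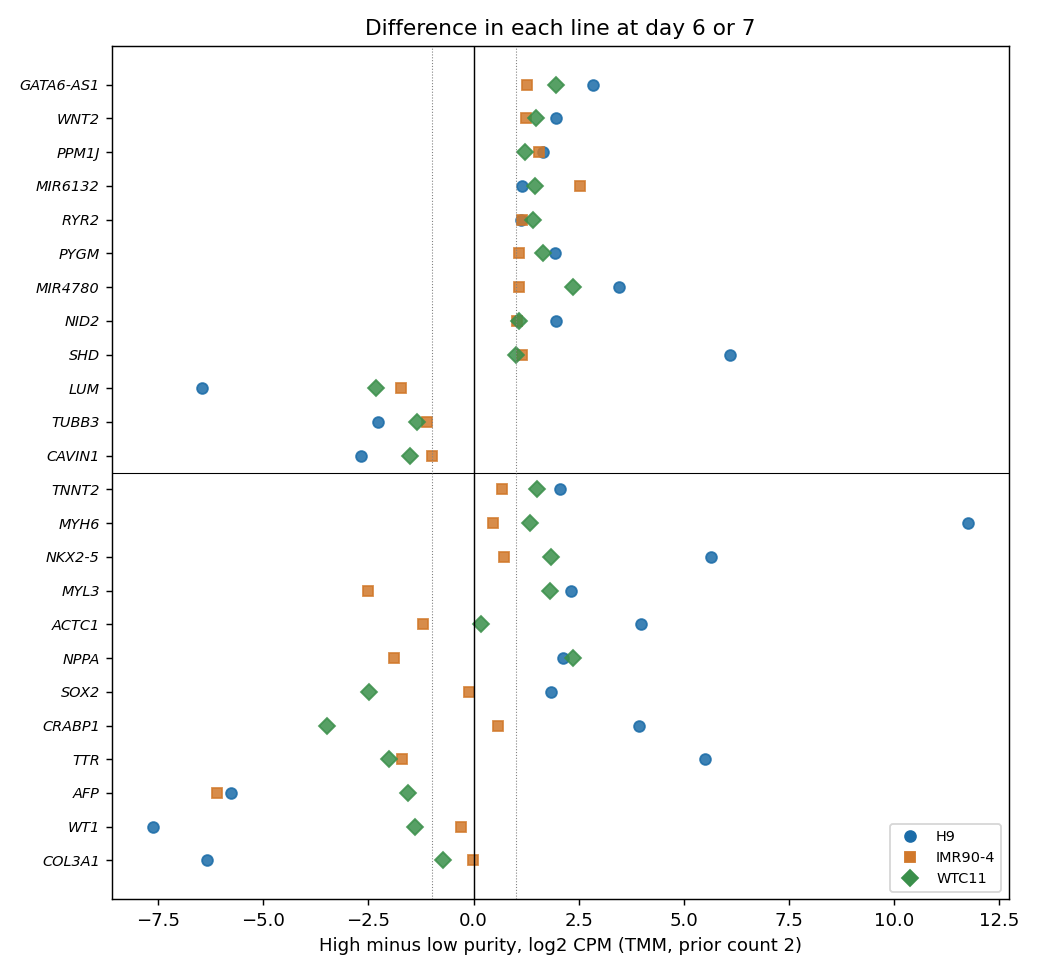
High minus low purity difference (horizontal axis, log2 CPM) of 24 genes in each line; circles are H9, squares IMR90-4 and diamonds WTC11, each from 1 pair of libraries, and dotted lines mark -1 and 1. The 12 genes above the line lie past 1 in the same direction in all lines, while MYL3 runs from -2.51 in IMR90-4 to 2.31 in H9 and TTR from -2.02 in WTC11 to 5.5 in H9.

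The genes with the smallest edgeR p included several with differences under 1. Among genes at 5 TPM or more in at least 3 of the 6 libraries, the higher ones included PYGM, PPP1R12B, ARHGEF25 and QKI. QKI, an RNA-binding splicing factor, differed by 0.93, 0.59 and 0.66. The lower ones were PHACTR2, TMEM250, TUBB3, DPP3 and PSMD1. PSMD1, a subunit of the proteasome, differed by -0.66, -0.54 and -0.42. The adjusted p values of these genes in edgeR were 0.161 to 0.196.

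How far 2 lines predict the other was described by selecting genes that differed by at least 1 in the same direction in 2 lines. Of 522 genes selected in IMR90-4 and WTC11, 57.9% had the same sign in H9, beside 58.4% of all genes with 1 sign in those lines. Of 907 genes selected in H9 and WTC11, 63% had the same sign in IMR90-4, beside 60.8%. Of 994 selected in H9 and IMR90-4, 59.2% had the same sign in WTC11, beside 58.5%. By direction, the same sign held in H9 for 65.2% of the genes selected as higher and 50.4% of those selected as lower, in IMR90-4 for 67.5% and 54.8%, and in WTC11 for 59.9% and 58%. On log2(TPM + 1) the share in WTC11 was 70.7%, beside 57.7% of all genes.

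Genes of other lineages also differed by line, and they were described with lists of markers. Over all genes tested, 17.5% were higher by at least 1 in high purity in H9, 7.78% in IMR90-4 and 5.97% in WTC11, and 10.8%, 6.15% and 5.67% were lower. In H9 the low purity library had high levels of many matrix, epicardial and HOX genes. Of 14 fibroblast and matrix genes tested, 8 (57.1%) were lower by at least 1 in high purity H9, as were 6 of 12 epicardial genes (50%) and 16 of 19 HOX genes (84.2%); the share of all genes was 10.8%. In IMR90-4 the counts of lower genes for these lists were 2, 2 and 2, and in WTC11 they were 2, 2 and 3. In the other direction, 2 matrix genes (14.3%), 2 epicardial genes (16.7%) and 0 HOX genes were higher by at least 1 in high purity H9, beside 17.5% of all genes. By TPM, FN1 of the matrix list was 10.1-fold and ITLN1 of the epicardial list 9.93-fold higher there. COL3A1, a fibrillar collagen, was at 12 TPM in the high and 897 TPM in the low purity library of H9, and at 7.51 and 7.7 TPM in IMR90-4 and 25.2 and 43.4 TPM in WTC11. DCN, the proteoglycan decorin, was at 0.0393 and 68.7 TPM, WT1, a transcription factor of the epicardium and of coelomic mesoderm, at 0.193 and 39.5 TPM, and TBX18 at 0.825 and 17.7 TPM. These 3 genes were at 0.944 TPM or less in the 4 libraries of the other lines. Summed over 12 epicardial genes the TPM was 198.5 in low purity H9 and 17.91 to 46.42 in the other 5 libraries. HOXB4 was at 6.42 and 59.9 TPM and HOXA5 at 0 and 14.5 TPM in H9. In the other lines HOXB4 was slightly higher in high purity, at 4.07 and 2.6 TPM in IMR90-4 and 16.5 and 9.22 TPM in WTC11, and HOXA5 was at 0.246 TPM or less.

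Most endoderm and glycolytic genes were at lower levels in low than in high purity H9. Of 13 endoderm genes 10 were higher by at least 1 in high purity (76.9%, against 17.5% of all genes), and of 14 hypoxia and glycolysis genes also 10. In the other direction 2 endoderm genes (15.4%, against 10.8% of all genes) and 0 hypoxia and glycolysis genes were lower. In IMR90-4 and WTC11 none of either list was higher by at least 1 (7.78% and 5.97% of all genes were). Other lists also shifted in H9. The shares higher were 69.2% (pluripotency), 61.1% (paraxial mesoderm) and 57.9% (endothelial and blood), and the shares lower were 7.69%, 16.7% and 10.5%. The endoderm factor HHEX was at 12.2 and 0.316 TPM, EPCAM at 15.1 and 1.51 TPM, LDHA, which makes lactate, at 346 and 36.9 TPM, and the glucose transporter SLC2A3 at 486 and 16.9 TPM. The order was reversed for LDHA in IMR90-4 (230 and 303 TPM) and WTC11 (206 and 297 TPM), as it was for SLC2A3 (596 and 820 TPM, and 453 and 598 TPM), and EPCAM was at 33.7 and 41.2 TPM and at 41.9 and 41.7 TPM. The genes with the largest gap between H9 and the nearer of the other lines were MYH6, SMYD1 and UNC45B on the higher side. On the lower side they were DCN, NELL1 (0 reads in high and 855 in low purity, at least 302-fold lower at a floor of 3 reads in the library) and SHISA3 (1.01 and 208 TPM).

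In WTC11 the low purity library had high levels of several neural genes and of SOX2. Of 13 neuroectoderm and neural crest genes, 8 (61.5%) were lower by at least 1 in high purity, and 0 were higher; the share of all genes was 5.67%. SOX2, a factor of pluripotent and neural progenitor cells, was at 20.6 TPM in the high and 120 TPM in the low purity library of WTC11, and at 1.41 TPM or less in the 4 libraries of the other lines. SOX21 was at 0.983 and 22.8 TPM, FEZF1, a forebrain factor, at 0.856 and 17.9 TPM, and CRABP1, a retinoic acid binding protein, at 20.1 and 238 TPM. Of 13 pluripotency genes, 5 (38.5%) were lower by at least 1 in high purity and 0 were higher. LIN28A, an RNA-binding protein of pluripotent cells, was at 423 and 852 TPM, and TDGF1, a co-receptor of NODAL, was at 32.2 and 33 TPM. The pluripotency list went mostly the other way in H9. There 9 genes (69.2%) were higher and 1 (7.69%) lower in high purity, beside 17.5% and 10.8% of all genes. In IMR90-4 1 was higher and 3 were lower. FEZF1, FEZF1-AS1 and LINC01414 were the genes with the largest gap on the lower side for WTC11. On the higher side the gap was largest for LOC105370767, AFP and HOXA-AS2, which were lower in the high purity libraries of H9 and IMR90-4. In WTC11 AFP was also lower, at 0.313 and 1.05 TPM, and the other genes of this set were at 0.853 TPM or less.

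In IMR90-4 the low purity library had higher levels of endoderm products and surface epithelium genes than the high purity library, beside its cardiac genes. AFP, the fetal serum protein of yolk sac and liver, was at 0.492 TPM in the high and 37.6 TPM in the low purity library, TTR, a thyroid hormone carrier, at 140 and 462 TPM, and APOA1, an apolipoprotein, at 41 and 142 TPM. Of 11 amnion and surface epithelium genes 6 (54.5%) were lower by at least 1 in high purity, against 6.15% of all genes. The endoderm products were not particular to this line. In WTC11 the low purity TPM was 3.36-fold (AFP), 4.24-fold (TTR) and 1.96-fold (APOA1) the high purity TPM. In H9 AFP and APOA1 were also lower in high purity, and TTR was higher. Of 13 endoderm genes, 4 (30.8%) were lower by at least 1 in IMR90-4 and 3 (23.1%) in WTC11. The 4 genes in IMR90-4 contrast with factors of early endoderm at level values: HHEX was at 66.6 and 79.8 TPM and FOXA2 at 9.96 and 10.5 TPM. ACTA2, smooth muscle actin, was at 62.1 and 157 TPM. The genes with the largest gap on the lower side were RNR1, RNR2 and MYL3, and on the higher side LOC441666, LHX2 and RSPO1; LHX2 and RSPO1 were at 0.0557 TPM or less in both IMR90-4 libraries.

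**Figure D3:**
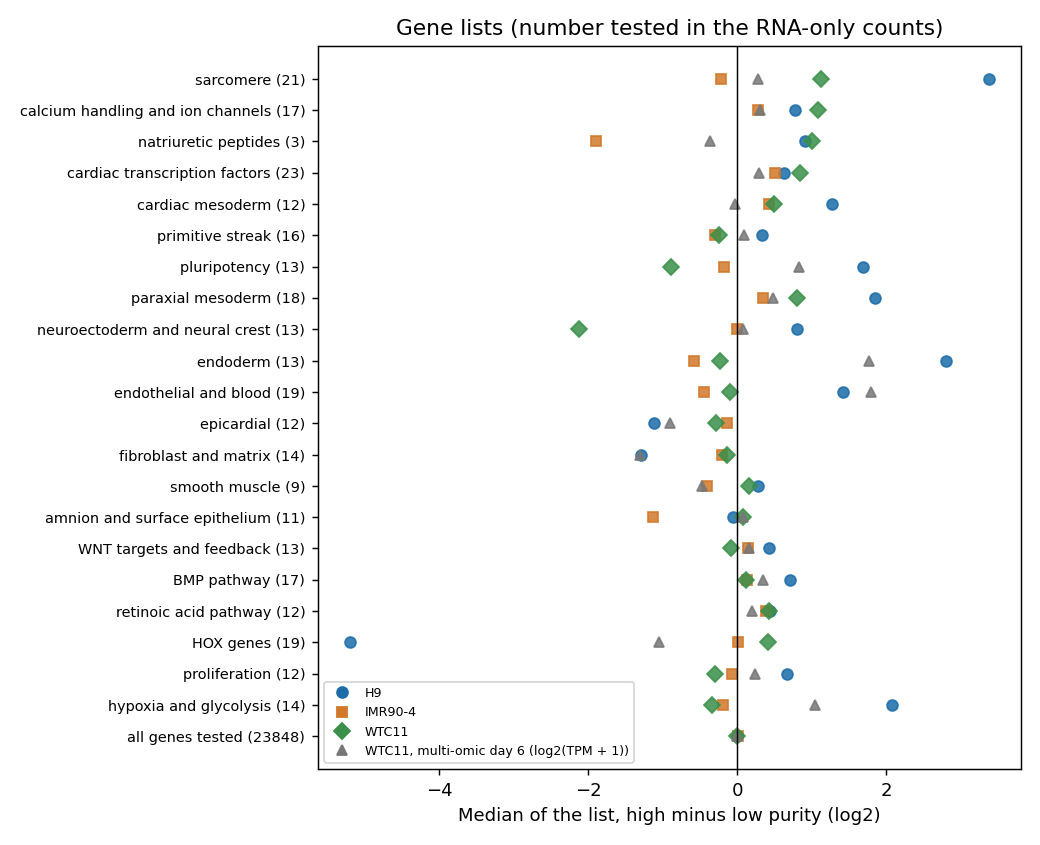
Median high minus low purity difference (horizontal axis, log2) of each gene list in H9 (circles), IMR90-4 (squares), WTC11 (diamonds) and the WTC11 poly(A) wells of day 6 (triangles), with the number of genes in brackets. The HOX median is -5.20 in H9, the neuroectoderm median -2.13 in WTC11, and the natriuretic peptide median -1.90 in IMR90-4, while all genes sit near 0.

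The earlier libraries of the same differentiations show when the lines parted. MESP1, the factor of early cardiac mesoderm, was at 166 TPM in the high and 10.2 TPM in the low purity library of H9 on day 3, and EOMES at 54.5 and 2.65 TPM. In IMR90-4 on day 3 MESP1 was at 99.3 and 62.3 TPM, and in WTC11 on day 2 at 7.69 and 3.16 TPM. LUM was already at 51.3 TPM in low purity H9 on day 3 and at 153 TPM on day 5, and it was at 1.21 TPM or less in the other 5 libraries at both steps. SOX2 in low purity WTC11 was at 99.5 TPM on day 2 and 102 TPM on day 4, beside 19.9 and 24.2 TPM in high purity. By contrast MYL3 in IMR90-4 was at 9.89 and 9.21 TPM on day 5, before the classes separated at day 7, and AFP was listed at 0 in low purity IMR90-4 on day 5.

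TNNT2 was ahead in low purity H9 before the last step. On day 5 it was at 28.9 TPM in low and 2.82 TPM in high purity H9, and the order was the reverse on day 7. RYR2 behaved alike, at 22.9 and 0.997 TPM on day 5 and 8.42 and 20.2 TPM on day 7, as did NID2, at 56.2 and 30.1 TPM and then 26.6 and 113 TPM. In low purity H9 MYL4 was at 268 TPM on day 3 and 6 TPM on day 7. NKX2-5 stayed between 1.05 and 1.64 TPM over the 4 steps in that differentiation. The change of the high minus low difference between the last 2 steps did not pass the edgeR test over the 3 lines for TNNT2, RYR2 or NID2. That test did not link the steps of a differentiation, and the courses within a single differentiation were not tested.

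**Figure D4:**
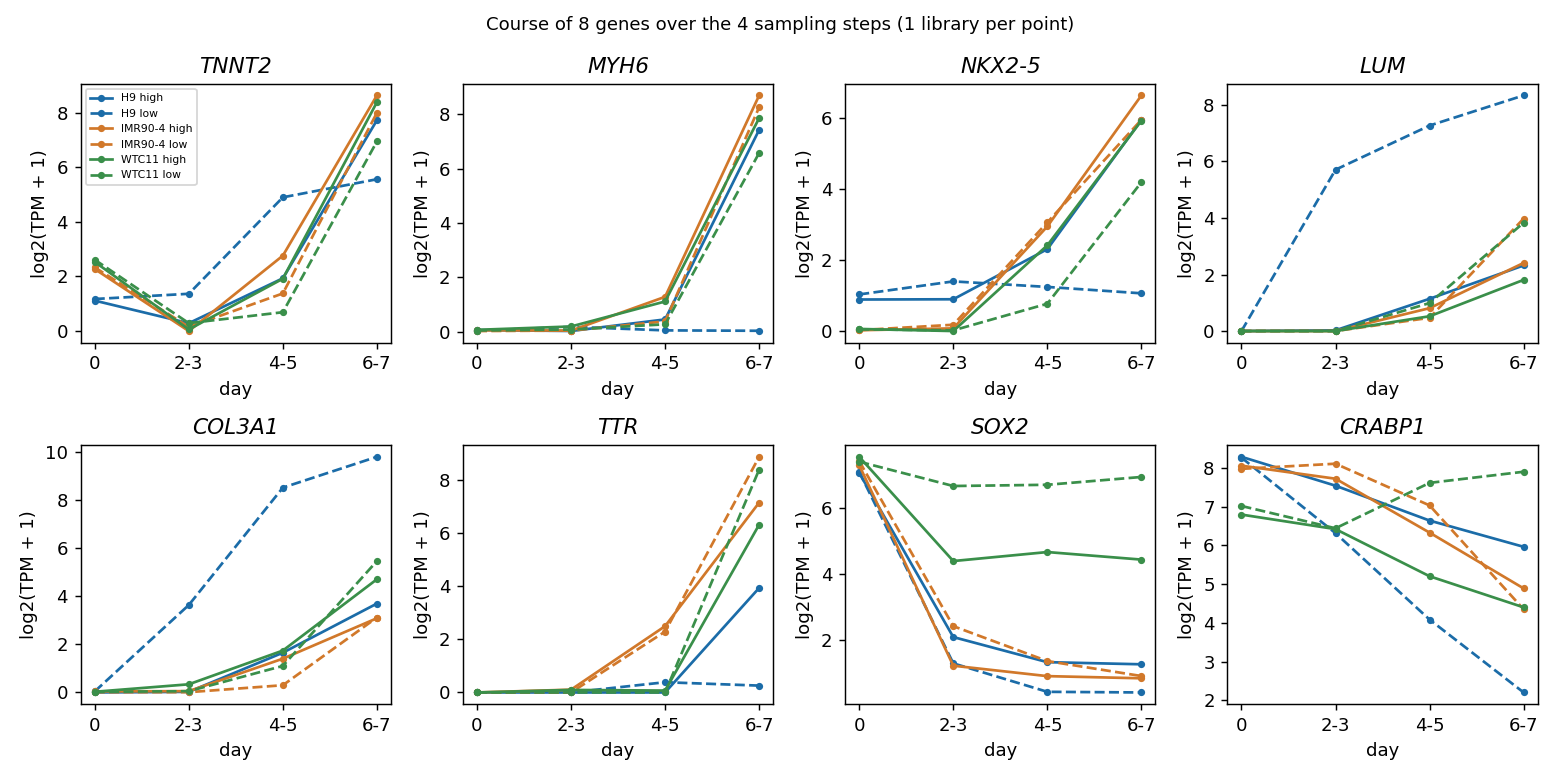
Expression (vertical axis, log2(TPM + 1)) of 8 genes on day 0, 2 or 3, 4 or 5, and 6 or 7 in the 3 lines; solid lines are high and dashed lines low purity, and each point is 1 library. LUM and COL3A1 climb early in low purity H9 alone, and SOX2 and CRABP1 stay high in low purity WTC11 alone.

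The WTC11 poly(A) wells of day 6 allow a comparison with wells as replicates, although these replicates are wells of 1 differentiation per class and measure only the spread within it. In the deposited count table of this experiment the columns named for day 6 do not hold the reads behind the TPM of the same name, so the values rest on the names of the TPM table. Values of the experiments come from separate tables and are set side by side without a test between them. With limma on log2(TPM + 1), 927 of 25664 genes (3.61%) were called higher and 1332 (5.19%) lower in high purity. Of the 119 genes higher in all 3 lines, 102 were tested there, and 15 (14.7%) were called higher and 2 lower. Of the 72 lower genes, 60 were tested and 12 (20%) were called lower and 0 higher. Those genes were selected in part on WTC11, but a selection on H9 and IMR90-4 alone gave 59 of 513 higher genes (11.5%) and 63 of 311 lower genes (20.3%) called in the same direction. Of the genes that differed by at least 1 in H9, 16.3% of the higher ones were called higher and 2.03% lower, and 22.7% of the lower ones were called lower and 1.41% higher. For WTC11 itself 8.08% of the higher genes were called higher and 8.68% lower, and 11% of the lower genes were called lower and 6.78% higher. For IMR90-4 the shares were 4.97% and 9.11% of the higher genes, and 9.67% and 6.6% of the lower genes.

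Among the 12 named genes, LUM, CAVIN1 and SHD were called in the poly(A) wells in the same direction. LUM was at 10.7 to 14.8 TPM in the 4 high and 490.1 to 859.3 TPM in the 4 low purity wells, a difference of -5.48 ± 0.13 (SE; limma adjusted p 1.07e-31). CAVIN1 differed by -1.41 ± 0.14 (SE) and SHD by 2.46 ± 0.24 (SE), with limma adjusted p values of 2.21e-11 and 8.88e-12. TUBB3 (-0.89) and PPM1J (0.99) had limma adjusted p values of 6.63e-07 and 1.98e-06 but did not reach the fold threshold. WNT2 went the other way, with a difference of -0.89 (limma adjusted p 2.77e-07). RYR2 was at 31.55 to 57.41 TPM in high and 42.71 to 53.34 TPM in low purity wells, with overlap and a limma adjusted p of 0.353. GATA6-AS1 (0.27, limma adjusted p 0.0748), NID2 (0.04, limma adjusted p 0.864) and PYGM (0.53, limma adjusted p 0.00661) did not reach the threshold either.

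The list genes were also set beside each line. Of 197 list genes at 5 TPM or more in 1 of the 6 libraries that were also tested in the wells, 133 differed by at least 1 in H9; 69 of them (51.9%) were called in the same direction in the wells and 4 (3.01%) in the opposite direction. For WTC11 itself, 20 of 66 genes (30.3%) were called in the same and 9 (13.6%) in the opposite direction. For IMR90-4 the counts were 8 (21.6%) and 10 (27%) of 37. Of all genes past 1, the shares called in the same direction were 16.3% (higher) and 22.7% (lower) for H9. They were 8.08% and 11% for WTC11, and 4.97% and 9.67% for IMR90-4. The shares of all genes are split by direction and have no limit of 5 TPM, so they are not a like measure. The difference between the list shares and the shares of all genes was not tested.

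WT1 was at 0.193 to 0.479 TPM in the high and 24.7 to 52.3 TPM in the low purity wells, and COL3A1 at 46.5 to 67.9 TPM and 1002 to 1647 TPM. In the total RNA libraries of WTC11 WT1 was at 0.183 and 0.542 TPM and COL3A1 at 25.2 and 43.4 TPM. SOX2 was at 12.7 to 16.5 TPM in high and 1.47 to 7.32 TPM in low purity wells, the opposite of the order in the WTC11 total RNA pair. CRABP1 (8.77 to 20 and 0.524 to 2.775 TPM) and TTR (615 to 982 and 136 to 293 TPM) were reversed in the same way. The wells did not overlap between classes for any of these 5 genes. The share of all genes whose wells separate in this way was not counted, and the wells are of 1 differentiation per class. Of the cardiac lists, 5 of 23 sarcomere genes were called higher and 2 lower in the wells, beside 3.61% and 5.19% of all genes. The counts were 0 and 3 of 18 calcium handling genes, 7 and 3 of 22 cardiac transcription factors, and 0 of 3 natriuretic peptide genes. MYH6 and NKX2-5 were higher in high purity in both, with differences in the wells of 1.51 ± 0.25 and 1.58 ± 0.25 (SE; limma adjusted p 2.25e-06 and 1.496e-06). TNNT2 was at 656 to 1751 TPM in high and 672 to 1179 TPM in low purity wells, with overlap and a limma adjusted p of 0.779.

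**Figure D5:**
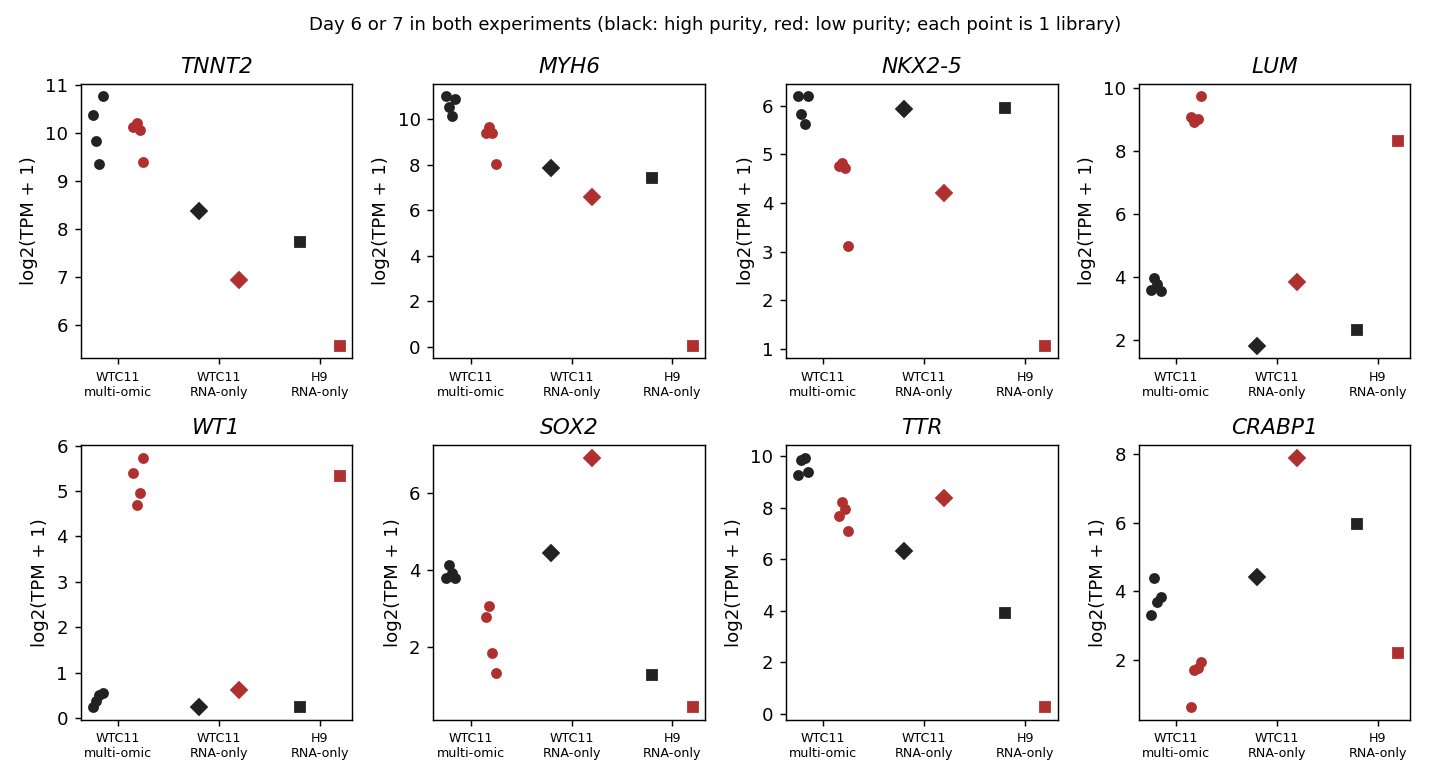
Expression (vertical axis, log2(TPM + 1)) of 8 genes in the WTC11 poly(A) wells of day 6 (circles), the WTC11 total RNA libraries of day 6 (diamonds) and the H9 total RNA libraries of day 7 (squares), black for high and red for low purity. LUM and WT1 are high in the low purity poly(A) wells and low purity H9, and SOX2, TTR and CRABP1 are higher in low than in high purity in the WTC11 total RNA pair alone.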

How the data were processed

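RNA-only libraries were made with the Takara SMARTer Stranded Total RNA kit and multi-omic libraries with a poly(A) kit, per the labels' protocols. Per the submitters' processing notes, STAR 2.5.3a, featureCounts 2.0.3 and genome build hg38 were used; how TPM were computed is not given in the sources used here. The authors deposited raw read counts and TPM per gene for each experiment. Among the RNA-only counts, 36 broken lines of 6 genes (TTN among them) were dropped, leaving 43382 genes; all 24 count columns matched their own TPM column (summed share difference under 0.01). Among the multi-omic counts, 0 of 8 day 6 columns matched their own TPM column and 7 matched a TPM column of another name. The deposited TPM was therefore used there. For all 8 the most correlated TPM column was of the same group.

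Counts of 23848 genes kept by filterByExpr were fitted in R 4.3.3 with edgeR 4.0.16 (quasi-likelihood, TMM), using all 24 libraries, 12 means for line and step, and 4 high minus low terms (8 residual degrees of freedom). That fit held no term for the differentiation, so the 8 residual degrees of freedom treat the steps of a differentiation as independent. Same-line libraries of the last step deviated together (correlations 0.338, 0.478 and 0.497), and pairing comes from the cell line. Line differences are log2 CPM (TMM, prior count 2). Calls need a Benjamini-Hochberg adjusted p under 0.05 and a log2 difference of at least 1. Multi-omic TPM (25664 genes at 1 TPM or more in at least 3 libraries), TMM-scaled with pseudocount 1, were fitted with limma 3.58.1 on 56 libraries (40 residual degrees of freedom); fold changes on log2(TPM + 1) understate changes of low genes. The p-values from wells measure the spread between wells. DESeq2 1.42.0 was an alternative. The edgeR procedure was tested on simulated data.

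The genes, 21 marker lists with measured members and the comparisons were chosen with earlier results of these data known; a list of mitochondrially encoded mRNAs had 0 members in the tables. Named genes are the 10 per direction with the largest smallest difference among genes past 1 in all lines at 5 TPM or more in each library of the higher class, the 5 per direction with the smallest edgeR p at 5 TPM or more in at least 3 of the 6 libraries, the cardiac genes past 1 in at least 1 line, the 3 per line and direction with the largest gap to the other lines, and list members at 10 TPM or more; MESP1 and EOMES, below that level on the last step, genes just outside the limit, and RNR2 on earlier days were chosen after their values were seen. A few genes these rules select are not reported here.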

Additional observations from a re-analysis of the deposited data

Results flagged for a closer look

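In the total RNA libraries 5 cardiac genes differed by at least 1 in opposite directions between lines; these differences between lines were not tested, since each line gave 1 pair. ACTC1 differed by 3.97 in H9 and by -1.21 in IMR90-4. MYL3 differed by 2.31 in H9 and by -2.51 in IMR90-4. NPPA differed by 2.37 in WTC11 and by -1.90 in IMR90-4. SLN, a regulator of the calcium pump at low levels here, differed by 1.06 in WTC11 and by -2.22 in IMR90-4. ZFPM2, a cofactor of GATA factors, differed by 1.06 in IMR90-4 and by -3.11 in H9.

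For these list genes the WTC11 total RNA pair and the WTC11 poly(A) wells of day 6 went in opposite directions; the difference between the experiments was not tested. Higher in low purity in the total RNA pair and in high purity in the wells were SOX2 (-2.49 and 1.63), SOX21 (-4.43 and 1.31), TTR (-2.02 and 1.86), CCND1 (-1.05 and 1.59) and CRABP1 (-3.50 and 2.24). The reverse held for PLN (1.99 and -1.09), SLN (1.06 and -5.41) and POSTN (1.62 and -3.95).

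Single wells lay far from the other 3 of their group for 5 genes, where the gap divided by the range was above Dixon's 95% critical value for 4 samples. In low purity wells this was well 4 for LUM (0.852), CAVIN1 (0.849), NKX2-5 (0.893) and COL3A1 (0.875), and in high purity wells well 4 for HAND1 (0.875). In all, 48 groups of 4 wells were checked, and chance flags about 1 in 20 such groups.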

How the results depend on the processing

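For the mean difference over lines, edgeR gave 0 calls with other scalings, without the filter, without each line, with the 6 libraries alone (replicate block by line) and with no replicate block (0 calls, 1371 genes at an unadjusted p under 0.05). DESeq2 gave 205 calls and limma on log2(TPM + 1), chosen after seeing the data, 9; for the change from the step before, each gave 1. The cause was not tested. Genes past 1 in all lines numbered 479 higher and 272 lower at a 1.5-fold limit, 1 and 3 at a 4-fold limit, 9 and 3 on log2(TPM + 1), which adds 1 to every level and so shrinks low genes, and also 9 and 3 with 5 TPM in the higher class, an alternative chosen after seeing the data. With a prior count of 0.5 the lower set grew to 129. Leaving out H9, IMR90-4 or WTC11 gave 264, 582 and 606 higher and 258, 325 and 388 lower genes, since fewer lines must then concur. The same-sign share in the remaining line moved to 50% in H9 and 70.7% in WTC11 on log2(TPM + 1), and to 57.7% in IMR90-4 and 64.6% in WTC11 at a 4-fold limit, with fewer genes selected. The poly(A) wells gave 3894 calls with a pseudocount of 0.1, and 2066 to 2436 when a well was left out. A replicate block by well number gave 2258 calls against 2259, and same-numbered wells did not deviate together (correlations -0.00927 to 0.00552). Among genes named in the text, DESeq2 but not edgeR called PPM1J, PYGM, TUBB3, CAVIN1, PPP1R12B, PPP1R1A, CACNA1D (also called by limma), RSPO1, LHX2 and AFP. The same held for S100A10, TAGLN, ATP1B2, FILIP1, RBM24, TRDN, SLC8A1 and MYBPC3. No named gene changed direction. The depth of a single library per line and class limits genes with few reads.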

Other observations

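Of 17 BMP pathway genes tested, 8 (47.1%) were higher and 3 (17.6%) lower by at least 1 in high purity H9, beside 17.5% and 10.8% of all genes. In IMR90-4 and in WTC11 1 gene (5.88%) was higher and 1 lower, beside 7.78% and 5.97% of all genes higher. BMP2, a ligand, was at 29.2 and 2.35 TPM in H9, 85.5 and 92.6 TPM in IMR90-4, and 58.7 and 33.6 TPM in WTC11, and ID4, a target of BMP signalling, at 162 and 29.9 TPM, 140 and 125 TPM, and 144 and 105 TPM. Of 12 proliferation genes, 3 (25%) were higher by at least 1 in H9, near the share of all genes, and none in the other lines; TOP2A was at 165 and 70.8 TPM in H9, 133 and 125 TPM in IMR90-4, and 129 and 146 TPM in WTC11.

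CYP26A1, which degrades retinoic acid, was at 11.4 and 0.537 TPM in H9, 1.47 and 1.21 TPM in IMR90-4, and 38.1 and 50.9 TPM in WTC11. TAGLN, an actin-binding protein of smooth muscle, was lower in high purity in all lines, at 26.4 and 87.4 TPM, 31.4 and 69.2 TPM, and 35.9 and 55.5 TPM. The mitochondrial rRNA RNR2 was also at 1668 TPM in low purity IMR90-4 on day 0 and at 1033 TPM in high purity WTC11 on day 4.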
